A study of Mus musculus with 3 samples.

Results

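Genes of the BCL2 family, the caspases and the proteins that restrain caspases were examined in haematopoietic stem cells of mouse bone marrow. The 36 genes were taken from a fixed list of names, and 32 of them were measured by probe sets that name a single gene, of 19938 genes measured in that way. Of these names, 12 were listed as opposing cell death and 18 as promoting it. Another 6 were kept apart because they act mainly in inflammation or differentiation or are atypical family members. Bcl2a1a, Bcl2a1b and Bcl2a1d shared their probe sets with other copies, and Bax is not analysed here. The samples were 3 wild-type populations from C57Bl/6 mice aged 6 to 10 weeks, with no treatment and no second genotype. The cells carried c-Kit, Sca-1 and CD150 and lacked lineage markers as well as CD41 and CD48 (the KLS SLAM gate), and each population was measured on 1 microarray from column-purified RNA that had been amplified and biotin-labelled. No label says whether the arrays came from separate animals, whether animals were pooled or of which sex they were, so every spread given is between these arrays and may be partly technical.

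Apoptosis is decided largely at the outer membrane of mitochondria. BAX and BAK permeabilise that membrane, the pro-survival proteins BCL2, BCL-xL, BCL-w, MCL1 and A1 hold them in check, and the BH3-only proteins, which share only the short BH3 helix with the family, relieve that restraint or activate the pore formers. Released cytochrome c then assembles APAF1 and caspase-9, while death receptors act through FADD and caspase-8. MCL1 in particular is required for the survival of haematopoietic stem cells, and forced expression of BCL2 enlarges their pool.

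Values are log2 of the array intensity. The background range of an array ends at the 95th percentile of 1231 olfactory, vomeronasal and taste receptor genes, which marrow cells are not thought to use, and a gene had to pass that limit on all 3 arrays to count as above the range. The limit was 6.29 on array 1, 5.98 on array 2 and 5.77 on array 3. Of all 19938 genes, 7838 passed it on array 1, 9794 on array 2 and 11014 on array 3. A miss on array 1 alone or a pass on array 3 alone therefore partly reflects the limits. Probe sets differ in affinity, so no member's level is ranked against another's, and a gene below the limit is not shown to be absent. In bulk RNA, fewer expressing cells and less RNA per cell cannot be told apart. Above the range lay 36.8% of all genes, and 8 of 9 measured markers of the stem cell list. The neutrophil list had 12 of 14 above it although lineage-positive cells had been excluded, and its mean was 8.17 on array 1, 8.85 on array 2 and 8.94 on array 3. The monocyte and macrophage list had 2 of 7 above it, the megakaryocyte list 3 of 4, the stroma and endothelium list 4 of 6, the erythroid list 1 of 4, the B cell list 1 of 5 and the list for T and NK cells 1 of 6. Of the genes whose proteins the gate excludes, Cd48 was at 4.61, 5.62 and 6.14 on arrays 1, 2 and 3, and Itga2b, the gene of CD41, was above the range at 6.51, 6.36 and 6.24. Array 2 stood apart in sex-linked transcripts. Xist, the RNA of the inactive X chromosome, was at 4.64 on array 1, 9.99 on array 2 and 4.95 on array 3, while the Y-linked Eif2s3y was at 7.38, 5.47 and 8.65 and Uty at 7.04, 4.99 and 6.70.

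Of the 32 measured members, 18 were above the background range, against 36.8% of all genes. The pro-survival side had 7 of 9 measured genes above it, the pro-death side 9 of 17, and the genes kept apart 2 of 6. The median of the genes' mean levels was 7.56 for the pro-survival side, 6.35 for the pro-death side and 5.84 for the rest, beside 5.96 over all genes. Probe set affinity enters each median, so the medians describe the lists and are not read as a difference between the sides, which was not tested. At the other end, 6 members lay below the limit on all 3 arrays, a place shared by 42.0% of all genes.

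**Figure D1:**
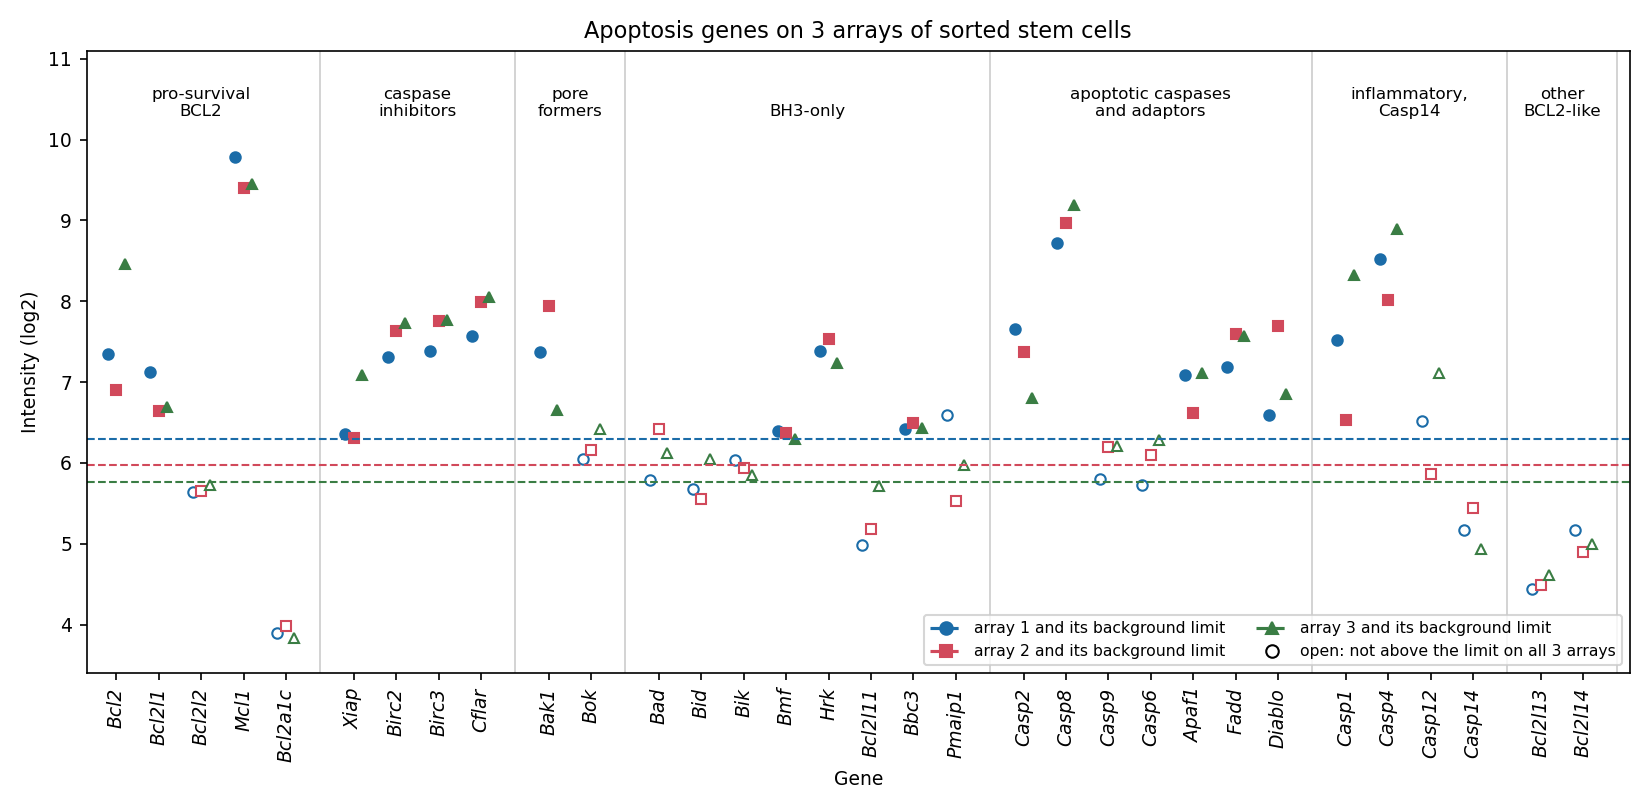
Log2 intensity (y axis) of the 32 measured members (x axis, grouped by role) on array 1 (circles), array 2 (squares) and array 3 (triangles), with the background limit of each array as a dashed line in its colour. Filled symbols mark the 18 genes above the limit on all 3 arrays, and all 4 caspase inhibitors are among them.

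Among the pro-survival BCL2 proteins, Mcl1, Bcl2 and Bcl2l1 were above the range and Bcl2l2 and Bcl2a1c were not. Mcl1, which encodes a short-lived protein that sequesters BAK and BIM, was at 9.79, 9.40 and 9.45 on arrays 1, 2 and 3 (9.54 ± 0.21, SD, n = 3). It exceeded the limit by at least 3.42 on every array, and its 3 values lay within 0.39 of each other. Bcl2, the founding member of the family, was at 7.35, 6.91 and 8.46 (7.57 ± 0.80), so that array 3 stood apart from the others. Bcl2l1, which encodes BCL-xL, was at 7.12, 6.65 and 6.69 (6.82 ± 0.27). For this gene as for Mcl1, array 1 was the highest and the other arrays were close together. Bcl2l2, the gene of BCL-w, was at 5.65, 5.65 and 5.72, below the limit on each array but only by 0.04 on array 3.

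Of the A1 genes, closely related duplicates on chromosome 9 that were listed on the pro-survival side, Bcl2a1c alone had a probe set of its own. It was at 3.90, 3.98 and 3.83, at least 1.94 below the limit on every array. The other 3 probe sets are annotated to all 4 copies, and their signal cannot be given to any of them. The likeness of the copies extends into their promoters, shown here because it illustrates how alike the copies are. The RefSeq windows of 250 bases before the start, on GRCm38.p6, lie at chr9:88956670-88956919 (plus strand), chr9:89199023-89199272 (plus), chr9:88731851-88732100 (minus) and chr9:114329885-114330134 (plus), with matches to the GC box GGGCGG on either strand in capitals.
Bcl2a1a: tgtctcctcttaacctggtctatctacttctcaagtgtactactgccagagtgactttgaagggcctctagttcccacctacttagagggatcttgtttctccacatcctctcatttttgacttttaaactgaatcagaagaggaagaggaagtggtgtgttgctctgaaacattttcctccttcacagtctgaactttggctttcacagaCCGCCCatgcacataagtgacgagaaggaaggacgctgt
Bcl2a1b: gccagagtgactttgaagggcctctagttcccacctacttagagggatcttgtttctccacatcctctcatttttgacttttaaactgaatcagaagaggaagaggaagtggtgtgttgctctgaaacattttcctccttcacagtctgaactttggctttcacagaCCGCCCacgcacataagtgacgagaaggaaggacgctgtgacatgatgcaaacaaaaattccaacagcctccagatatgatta
Bcl2a1d: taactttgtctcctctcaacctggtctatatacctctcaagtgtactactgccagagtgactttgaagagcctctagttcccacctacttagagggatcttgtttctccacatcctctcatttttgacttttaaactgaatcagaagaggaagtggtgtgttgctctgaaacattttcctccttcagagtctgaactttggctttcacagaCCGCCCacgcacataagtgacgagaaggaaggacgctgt
Bcl2a1c: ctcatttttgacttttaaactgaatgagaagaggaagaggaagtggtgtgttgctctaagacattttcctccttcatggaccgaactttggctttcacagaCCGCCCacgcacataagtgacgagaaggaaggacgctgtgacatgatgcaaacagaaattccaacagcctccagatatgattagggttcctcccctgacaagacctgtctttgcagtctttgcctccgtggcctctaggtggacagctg
In the best local alignments, Bcl2a1a matched Bcl2a1b at 205 of 206 bases, Bcl2a1d at 238 of 250 and Bcl2a1c at 132 of 140. The same GC box recurs in each, at 39 bases before the annotated start in Bcl2a1a and Bcl2a1d, 83 in Bcl2a1b and 149 in Bcl2a1c, since the annotated starts differ. 

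All 4 caspase inhibitors were above the range. Cflar, which encodes the caspase-8 decoy c-FLIP, was at 7.57, 7.99 and 8.06 (7.87 ± 0.26, SD, n = 3). Birc2 and Birc3, which encode the ubiquitin ligases cIAP1 and cIAP2 of the tumour necrosis factor receptor complex, were at 7.31, 7.63 and 7.73 and at 7.38, 7.76 and 7.76. All of these were lowest on array 1. Xiap, a direct inhibitor of caspases, was at 6.36, 6.31 and 7.09 (6.59 ± 0.44). It passed the limit on array 1 by only 0.07 and was highest on array 3.

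Cflar and Birc2 were the members with more than 1 probe set of their own, and every one of these probe sets was above the range. The 3 of Cflar averaged 6.63 ± 0.16, 9.65 ± 0.49 and 7.33 ± 0.33, and the 2 of Birc2 averaged 8.30 ± 0.27 and 6.82 ± 0.25 (SD, n = 3). Probe sets of a gene can differ in affinity, so these levels are not ranked. Of the probe sets shared by the A1 copies, 2 lay below the limit on all arrays and the last lay above it at 6.75, 6.34 and 6.61.

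**Figure D2:**
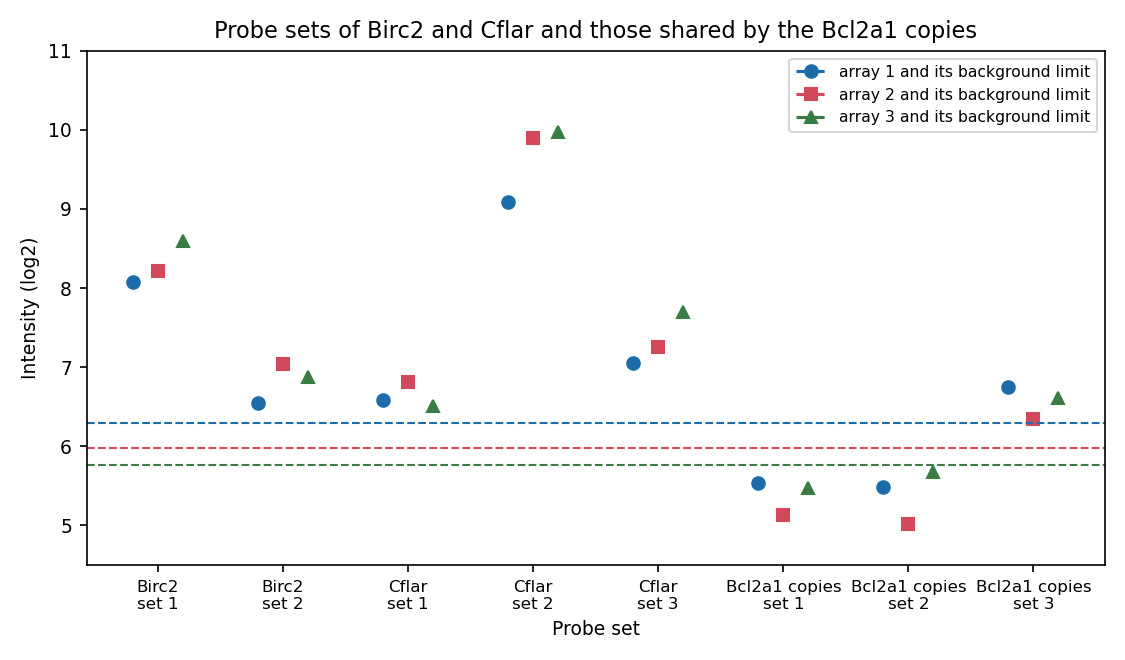
Log2 intensity (y axis) of the single probe sets (x axis) of Birc2 and Cflar and of the 3 probe sets annotated to all 4 Bcl2a1 copies, on array 1 (circles), array 2 (squares) and array 3 (triangles), with each array's background limit dashed. All 5 probe sets of Birc2 and Cflar are above their limits, against 1 of the 3 shared ones.

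Of the pore formers, Bak1 was above the range, Bok was above the limit on arrays 2 and 3 only, and Bax is not analysed here. Bak1 was at 7.38, 7.94 and 6.65 (7.32 ± 0.64, SD, n = 3), highest on array 2 and lowest on array 3. Bok, which encodes a relative of BAX found mostly at the endoplasmic reticulum, was at 6.05, 6.16 and 6.42 (6.21 ± 0.19).

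Of the BH3-only genes, 3 of 8 were above the range, close to the share of 36.8% of all genes. Hrk, first described in neurons deprived of growth factor, was at 7.38, 7.53 and 7.24 (7.38 ± 0.15, SD, n = 3), at least 1.09 over the limit on each array. Bbc3, which encodes the p53 target PUMA, was at 6.43, 6.49 and 6.44 (6.45 ± 0.04). Bmf, a sensor of detachment from the matrix, was at 6.39, 6.37 and 6.29 (6.35 ± 0.05). The values of Bbc3 and Bmf lay close together, and on array 1 they passed the limit by only 0.13 and 0.10.

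The other 5 BH3-only genes missed the limit on at least 1 array. Bcl2l11, the gene of BIM, which mediates death after cytokine withdrawal, was at 4.99, 5.18 and 5.72 (5.30 ± 0.38), below the limit on each array and by 0.05 on array 3. Pmaip1, the gene of NOXA, an MCL1 antagonist, was at 6.60, 5.52 and 5.97 (6.03 ± 0.54) and missed the limit on array 2 alone. Bad, whose protein is held inactive by growth factor signalling, was at 5.79, 6.42 and 6.12 and missed it on array 1 alone. Bid, the substrate through which caspase-8 engages the mitochondria, and Bik, a BH3-only protein of the endoplasmic reticulum, passed it on array 3 only. Bid was at 5.68, 5.55 and 6.05, and Bik at 6.04, 5.94 and 5.85. Bik was thus lowest on array 3 and passed there only because the limit of that array was the lowest.

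Of the apoptotic caspases and their adaptors, 5 of 7 were above the range, against 36.8% of all genes. The receptor-linked initiator Casp8 was at 8.72, 8.97 and 9.19 (8.96 ± 0.23, SD, n = 3), at least 2.43 above the limit, and its adaptor Fadd was at 7.19, 7.60 and 7.58 (7.45 ± 0.23). Both were lowest on array 1. Casp2, an initiator linked to DNA damage and to extra centrosomes, was at 7.66, 7.37 and 6.80 (7.28 ± 0.44).

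In the mitochondrial arm, Apaf1, the apoptosome scaffold, was at 7.09, 6.62 and 7.12 (6.94 ± 0.28), above the range. Casp9, the protease it activates, was at 5.80, 6.19 and 6.21 (6.07 ± 0.23), and the executioner Casp6 at 5.73, 6.10 and 6.29 (6.04 ± 0.28). Both missed the limit on array 1 alone. Diablo, which encodes the mitochondrial antagonist of XIAP, was above the range at 6.60, 7.69 and 6.85 (7.05 ± 0.57), with array 2 apart from the others.

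The inflammatory caspases Casp1, Casp4 and Casp12 followed the same order of arrays, highest on array 3 and lowest on array 2. Casp1, which matures interleukin-1 beta and interleukin-18, was at 7.52, 6.53 and 8.33 (7.46 ± 0.90, SD, n = 3). Casp4, the sensor of cytosolic lipopolysaccharide also called caspase-11, was at 8.52, 8.01 and 8.90 (8.48 ± 0.45). Casp12, an inflammatory caspase of the endoplasmic reticulum, was at 6.52, 5.86 and 7.11 (6.50 ± 0.63) and missed the limit on array 2 by 0.12. On array 1 each lay within 0.06 of its own mean as deposited. This order was held by 14.7% of all genes and by 20.7% of those above the range, and by 7 of the 32 members, the others being Bcl2, Xiap, Bid and Apaf1. Casp1 and Casp12 kept it after quantile and after cyclic loess normalisation. Casp4 kept it only narrowly, since arrays 1 and 3 were then nearly level, at 8.71 and 8.73 after quantile and 8.67 and 8.74 after cyclic loess normalisation, with array 2 at 8.02 in both. Of the 10 measured genes of necroptosis and pyroptosis, 3 held that order, namely Aim2, Nlrc4 and Zbp1. Aim2 was above the range and Zbp1 missed the limit on array 1 alone. Nlrc4 lay below the limit on all 3 arrays, with arrays 1 and 2 both at 4.18. The genes of interleukin-1 beta and interleukin-18, named here after their values were seen, did not hold that order. Il1b was at 6.60, 5.71 and 6.29, highest on array 1 and lowest on array 2, where it missed the limit. Il18 was at 6.33, 6.76 and 6.95, lowest on array 1. Gsdmd, of the same list, was at 7.19, 7.65 and 7.45, highest on array 2 and lowest on array 1. The mean of the megakaryocyte list was highest on array 3 and lowest on array 2, at 6.50, 6.25 and 6.82. Array 2 was also the array high in Xist. The part of these in the caspase values was not tested.

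Casp1, Casp4 and Casp12 are consecutive protein-coding genes on mouse chromosome 9 in RefSeq. Their promoter windows of 250 bases on GRCm38.p6, all on the plus strand, are shown because the genes followed one order of arrays. They lie at chr9:5298267-5298516, chr9:5308599-5308848 (the first of 2 annotated starts) and chr9:5345226-5345475, with motif matches in capitals.
Casp1: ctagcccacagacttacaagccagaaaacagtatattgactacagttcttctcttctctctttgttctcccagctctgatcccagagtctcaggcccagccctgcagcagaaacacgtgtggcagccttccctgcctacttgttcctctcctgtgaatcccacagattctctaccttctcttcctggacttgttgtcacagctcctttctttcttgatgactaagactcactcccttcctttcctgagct
Casp4: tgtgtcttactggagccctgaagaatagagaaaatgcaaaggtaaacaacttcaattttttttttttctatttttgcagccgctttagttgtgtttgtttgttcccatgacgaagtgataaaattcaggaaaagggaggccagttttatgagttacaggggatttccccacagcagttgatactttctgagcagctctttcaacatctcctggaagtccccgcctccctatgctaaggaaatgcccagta
Casp12: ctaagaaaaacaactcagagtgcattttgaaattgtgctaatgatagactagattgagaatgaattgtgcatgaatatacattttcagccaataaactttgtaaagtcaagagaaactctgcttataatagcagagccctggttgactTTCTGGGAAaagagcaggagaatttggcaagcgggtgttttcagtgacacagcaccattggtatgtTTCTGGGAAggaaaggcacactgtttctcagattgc
Each window was searched on both strands for the GC box GGGCGG, the TATA box TATAAA, the interferon response core GAAANNGAA and the STAT site TTCNNNGAA. Casp12 held the STAT site at 102 and at 36 bases before the start, each time as TTCTGGGAA, which lies in capitals above and overlaps no other motif searched, and the windows of Casp1 and Casp4 shown held none of the 4 motifs. The STAT site occurs in the windows of 8.13% of 27025 genes and the interferon response core in 8.18%. A match describes letters only. The windows shown held 1 CpG in Casp1, 3 in Casp4 and 1 in Casp12, beside a median of 6 over all genes with a window.

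Of 34 members with a window, 23 held a GC box in at least 1 of their windows, or 67.6%. All of the near-identical A1 copies were among the 23. The share was 35.4% over all 27025 genes with a window, which include genes not measured here. The median number of CpG was 12 for members and 15 for those above the range, beside 17 for all measured genes above the range and 8 for those not above it. Apaf1 with 42, Bbc3 with 37 and Bcl2 with 36 had the most. Over all measured genes the GC box was found in 63.5% of those above the background range and 40.6% of those not above it. Among members it was in 10 of 18 above the range and in 9 of 12 not above it, so the members did not follow that order, and the difference was not tested. Cflar and Xiap were the only members with a TATA box in a window.

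Casp14, Bcl2l13 and Bcl2l14, the remaining genes kept apart, were below the limit on all 3 arrays. Casp14, the caspase of keratinocyte differentiation, was at 5.18, 5.44 and 4.94. Bcl2l13, a mitochondrial outer membrane protein, was at 4.44, 4.49 and 4.61, and Bcl2l14 lay between 4.90 and 5.18.

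Variation between the arrays was the only comparison that a single group allows. With limma, the variance of each gene was set against the trend of all genes at its level, with Benjamini-Hochberg adjustment over 19938 genes. No gene passed an adjusted p of 0.05, in the members or elsewhere (0.0% of all genes), the lowest adjusted p being 0.744 over all genes. That lowest value belonged to Xist, whose arrays lay up to 5.35 apart (limma, unadjusted p = 0.000115), so with 3 arrays this test missed even a difference of that size, and a miss does not show that a member did not vary. Before adjustment 5.1% of all genes had p under 0.05, against 1 of the 32 members, Casp1 (limma, unadjusted p = 0.0423, adjusted p = 0.96). The median SD was 0.25 for members and 0.22 for all genes, and 0.26 for both the members and all genes above the range.

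By size, 6 members had some pair of arrays over 1 log2 apart, against 10.5% of all genes. They were Casp1 with a range of 1.79, Bcl2 with 1.55, Bak1 with 1.29, Casp12 with 1.25, Diablo with 1.09 and Pmaip1 with 1.07. An SD as large as that of Casp1 was found in 3.37% and one as large as that of Bcl2 in 5.66% of the 2615 genes with mean levels of 7 to 8. Bak1, with 12.4% of those genes, and Diablo, with 16.7%, were less unusual. Of the 5406 genes with mean levels of 6 to 7, 6.88% had an SD as large as that of Casp12 and 9.97% one as large as that of Pmaip1. The members with the smallest SD were Bbc3 and Bcl2l2, and 98.0% and 96.4% of the genes of their levels varied as much or more. Without array 1 there were 4 members over 1 log2 apart, without array 2 only Bcl2, and without array 3 only Pmaip1 and Diablo, while the share of all genes fell to between 4.97% and 5.22%.

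**Figure D3:**
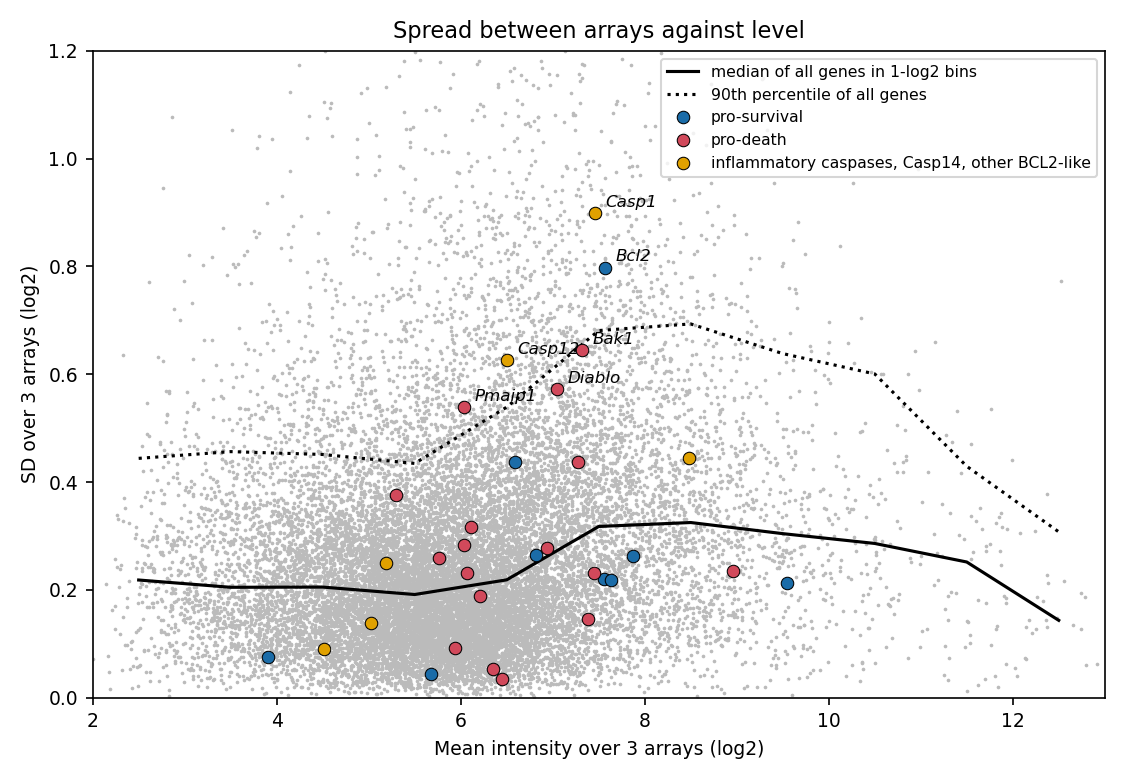
SD over the 3 arrays (y axis, log2) against mean log2 intensity (x axis) for all genes (grey) and the 32 members (coloured by side), with the median and 90th percentile of all genes per 1-log2 bin. The 6 labelled members have some pair of arrays over 1 log2 apart; 107 genes with an SD over 1.2 lie above the axis.

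Some members ran against the array-wide trend and others with it. Genes with mean levels of 9 to 10 lay a median of 0.20 below their mean on array 1 and 0.19 above it on array 3, while Mcl1 lay 0.24 above its mean on array 1. Genes with levels of 7 to 8 lay 0.06 below their mean on array 1 and 0.10 above it on array 3, and Birc2, Birc3 and Cflar lay 0.25, 0.25 and 0.30 below on array 1. The order array 3 over array 2 over array 1 was held by 10 members and by 15.1% of all genes. Among all genes above the range the share was 19.8%, and after cyclic loess normalisation, which removes level-dependent shifts, it was 13.0%, with 15.8% of all genes. Of the 10 members, 6 kept the order then, Birc2, Birc3, Cflar and Bcl2l2 lost it, and Bcl2a1c came to hold it. The mean of the neutrophil list was lowest on array 1 as well. Of its genes, Mpo, Prtn3 and Cd177 were lowest on array 2 and the rest on array 1. The part of that list in these values was not tested.

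**Figure D4:**
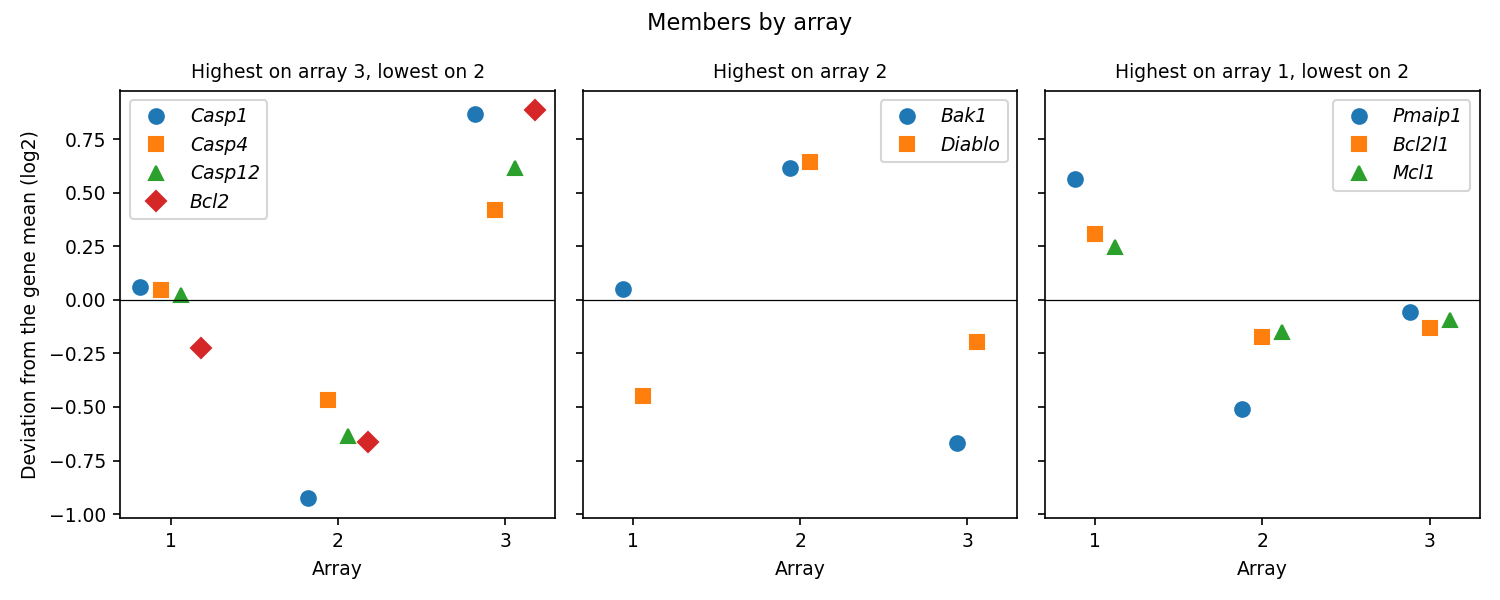
Deviation from the gene's own mean (y axis, log2) on each array (x axis) for 9 members grouped by the array on which they were highest. Casp1, Casp4, Casp12 and Bcl2 are highest on array 3 and lowest on array 2, Bak1 and Diablo are highest on array 2, and Pmaip1, Bcl2l1 and Mcl1 are highest on array 1.

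Other genes of the pathway, listed by role, had 31 of 46 measured genes above the range, against 36.8% of all genes. Among death receptors and their partners 4 of 9 were above it, and the receptor and ligand pair Fas, at 4.51, 3.81 and 4.42, and Fasl, at 4.33, 4.41 and 4.26, lay below it on all 3. Of the genes of execution and mitochondrial release 6 of 8 were above it. Cycs, which encodes cytochrome c, was at 6.48, 7.99 and 8.19, and Htra2, a mitochondrial protease that binds IAP proteins, at 7.73, 7.38 and 7.73. The nuclease genes Endog and Dffb were not above it, at 5.81 ± 0.22 and 5.26 ± 0.12 (SD, n = 3).

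Of the other IAP genes 4 of 6 were above the range, among them Birc5, the gene of survivin, at 6.77, 6.89 and 6.75, and Birc6 at 7.95, 7.46 and 7.51. Naip2 and Naip6, which are close paralogs, were not, at 6.22 ± 0.40 and 5.65 ± 0.12 (SD, n = 3). BCL2 partners and regulators had 11 of 13 above it. Bnip3 and Bnip3l, mitophagy receptors related to the family, were at 7.74, 6.42 and 6.52 and at 8.92, 8.48 and 8.63, both highest on array 1. Bcl2l10 and Bcl2l15 were not, at 3.70 ± 0.25 and 4.16 ± 0.34. Of the necroptosis and pyroptosis genes 6 of 10 were above it, including the kinase gene Ripk3 at 6.82, 6.51 and 6.72 and its substrate Mlkl, which forms the membrane lesion, at 6.74, 6.83 and 7.78.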

How the data were processed

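The submitters' processing notes name Affymetrix Expression Console and RMA. Versions, and which arrays were normalised as a set, were not given in the sources used here. RMA takes out most array-wide differences in brightness. The values deposited by the authors were taken for linear intensity, as they span 2.82 to 18384. Every log2 value was computed here, with no pseudocount.

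Of 35554 probe sets, 21789 named 1 gene in the platform annotation, 1621 named several and 12144 were not listed there. Single-gene probe sets were averaged per gene on the log2 scale, giving 19938 genes. The deposited table has no detection calls, so a background limit was set from receptor genes. It shows neither absence nor transcription, and the number of arrays limits precision. Of the 1231 receptor genes themselves, 31 passed it on all arrays.

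Variation was tested with limma 3.58.1 in R 4.3.3 (one-sided F test on 2 degrees of freedom against the robust variance trend, 4.34 prior degrees of freedom), after being tested on simulated data. Alternatives were other limits, background genes, probe set choices, normalisations and leaving out each array. Members and lists were chosen with earlier results of these data known. All measured members are named. Of the other pathway lists, the first 2 measured genes are named, and those on the rarer side of the limit where 3 or fewer. Aim2, Nlrc4, Zbp1, Il1b, Il18 and Gsdmd were named outside that rule, after their values were seen. The cell type marker lists are given as counts and some means, and their genes are named only in part. Promoter sequences are RefSeq's (GRCm38.p6), matched by symbol for 34 of 36 members.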

Additional observations from a re-analysis of the deposited data

How the results depend on the processing

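The count of members above the background range was 18 with the brightest probe set of each gene and after quantile or cyclic loess normalisation. It was 11 with the 99th percentile as the limit, when Bcl2l1, Xiap, Bmf, Bbc3, Apaf1, Diablo and Casp1 dropped out and 17.4% of all genes remained. It was 21 with the 90th (50.5% of all genes), 23 with vomeronasal and taste receptors alone as background genes (52.7%) and 24 by the mean over arrays (48.3%). The pro-death count, 9 as reported, was 5 at the 99th percentile and 14 when the mean over arrays was set against the mean limit. The pro-survival count, 7 as reported, was also 5 at the 99th percentile and stayed at 7 by the mean over arrays. When each array was left out in turn, the pro-death count ran from 9 to 13 and the pro-survival count stayed at 7. Members above the range numbered 22 without array 1 (46.9% of all genes), 20 without array 2 (38.7%) and 18 without array 3 (37.0%). By limma 0 members and 0 of all genes passed for variation under the 9 alternatives, with 0 to 4 members at an unadjusted p under 0.05. Such a p was found for 1010 to 1156 of all 19938 genes. It was found for 325 of 7345 where only genes above the range were tested. The 4 members came without array 1, when 1112 of all genes had such a p. With so few arrays the limma test also missed Xist, so the lack of passing members says nothing about stability. The 6 members with arrays over 1 log2 apart became 1 to 4 when an array was left out, in part because fewer pairs are compared. With the brightest probe set the mean level moved by more than its SD for 2 genes, Birc2 and Cflar. No paired analysis was possible because all samples belong to 1 group.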

Other observations

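The probe set shared by all 4 A1 copies that lay above the limit was at 6.75, 6.34 and 6.61 log2 on arrays 1, 2 and 3, while the other 2 were at 5.53, 5.13 and 5.47 and at 5.49, 5.02 and 5.68. All 3 were lowest on array 2.

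The arrays were not alike in sex-linked transcripts. Besides Xist, Eif2s3y and Uty, the Y-linked Kdm5d was lowest on array 2, at 7.15, 6.05 and 7.03. Of the 6 members with arrays over 1 log2 apart, Casp1, Casp12, Bcl2 and Pmaip1 were lowest and Bak1 and Diablo highest on that array. Over all genes, 28.8% were lowest and 38.6% highest on array 2. These members were picked by their spread on the same arrays, and a link to the sex-linked transcripts was not tested.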
